A study of Homo sapiens with 54 samples.

Results

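The BCL2 family decides whether the outer mitochondrial membrane is opened during intrinsic apoptosis. BAX and BAK1 are the effectors that form the pores, MCL1, BCL2L1 (BCL-XL) and BCL2A1 are guardians that hold them in check, and the BH3-only proteins BBC3 (PUMA), PMAIP1 (NOXA), BCL2L11 (BIM), BMF and BIK bind the guardians or, in the case of BIM and PUMA, also activate the effectors. BH3-only genes are known as the transcriptionally controlled arm of the family, with BBC3 and PMAIP1 as classical p53 targets and BCL2L11 and BMF as targets of stress and FOXO signalling, while MCL1 has a short-lived transcript and protein. The 10 genes were taken by symbol from a table of 50037 genes, and all 10 had a row. They were followed in 54 libraries of 2 human cell lines across 18 groups.

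HCT116 is a line from a colon carcinoma and HepG2 a line from a liver tumour, which the labels also call a liver cancer stem cell. Each line had 9 groups of 3 libraries. Cells in complete DMEM received IL-6 (a STAT3-activating cytokine, 50 ng/mL), IL-10 (50 ng/mL, a dose given in the series' design text), TNF-α (an NF-kB-activating cytokine, 100 ng/mL) or Torin1 (an inhibitor of the mTOR kinase, 1 µM), each for 6 h and 3 h, or an equal volume of medium as the mock group, NC. NC carried no time, and no solvent control for Torin1 was named, so time in culture and solvent cannot be told apart from treatment in a comparison with NC. Each treatment was also set against IL-10 of the same hour, which matches the hour but not a solvent, so for Torin1 solvent cannot be told apart from treatment there either. Biological triplicates are claimed in the series' text. Since separate cultures are nowhere stated, the p-values cover only library-to-library spread within groups, possibly of technical origin. A Torin1 recovery group named in the design text was not analysed here.

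Reads on genes came to between 38.5 and 55.7 M in each HCT116 library and between 46.3 and 93.7 M in each HepG2 library, and mitochondrial genes took 4.87 to 6.79% and 7.10 to 8.54% of them. The 7 hepatocyte markers summed to 2.13 to 8.40 FPKM (fragments scaled for transcript length and library depth) in HCT116 and to 12010 to 14210 FPKM in HepG2. Of 7 colon epithelium markers, only CDX2 reached 1 FPKM in HCT116 (1.41 to 3.13 FPKM), and CDX1, VIL1, KRT20, CDH17, LGR5 and FABP1 stayed at or under 0.296 FPKM, so 6 of the 7 were at or near 0 in that line. The same list summed to 1.51 to 3.53 FPKM in HCT116 and to 384 to 710.5 FPKM in HepG2, where FABP1 (292 to 631 FPKM), VIL1 (38.2 to 52.7 FPKM) and LGR5 (26.8 to 56.4 FPKM) were high and CDX1 and KRT20 were at 0, so as a whole it did not mark the colon line. Of 6 blood cell markers none reached 1 FPKM in HCT116 (summed 0.207 to 0.854 FPKM). In HepG2 the sum was 1132 to 1676 FPKM, nearly all of it LYZ (1130 to 1675 FPKM), CD14 reached 2.53 FPKM, and PTPRC, the pan-leukocyte marker, was at 0 in every library. The part of these markers in the results was not tested. Chi-square per degree of freedom between libraries of 1 group ran from 6.93 to 31.8, and the 2 highest values both involved HepG2 IL-6 3 h replicate 3 (31.8 and 26.0, against 12.25 between replicates 1 and 2). Without that library the members kept every call of IL-6 3 h against NC, while BAX against IL-10 3 h (adjusted p = 0.0978) and BIK between the hours (0.175) were lost and BAK1 and BAX between the hours were gained (0.0413 and 0.0499). HepG2 NC replicate 3 was the deepest library, and without it the members called against NC in HepG2 over the 8 groups numbered 33 in place of 43. In bulk RNA, a change in the number of cells in a given state and a change in RNA per cell cannot be told apart.

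Levels are the deposited FPKM values, which are per length and can be compared between genes. Changes are differences of group means of log2(FPKM + 1), called log2 changes here, with their SE. This scale understates the change of genes near or under 1 FPKM, so ratios of mean FPKM are given beside it. A change was called where limma's test gave a Benjamini-Hochberg adjusted p under 0.05 over all genes tested in that line. A gene was tested in a line if it reached 1 FPKM in at least 3 of its 27 libraries. That left 8 of the 10 members in HCT116, where BMF and BCL2A1 stayed under the limit, and 9 of 10 in HepG2, where BCL2A1 did. BIK passed in HepG2 only through 4 libraries, 2 each of TNF-α 3 h and Torin1 3 h, so its changes there are for a gene that had to be high in those groups to be tested at all.

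Before any treatment the lines held different sets of BH3-only transcripts. HCT116 had much more PMAIP1 and BIK, and HepG2 more BMF, BBC3, BAX, BCL2L1 and MCL1. PMAIP1 averaged 21.8 ± 0.737 FPKM in HCT116 NC and 1.63 ± 0.0643 FPKM in HepG2 NC (SD, n = 3 each), a ratio of 13.3 (log2 change 3.11 ± 0.072 SE, adjusted p = 3.87e-33). BIK averaged 9.68 ± 0.794 FPKM in HCT116 NC and 0.498 ± 0.0927 FPKM in HepG2 NC, a ratio of 19.4. BMF went the other way, with 0.0565, 0.0468 and 0.0375 FPKM in HCT116 NC (10 to 14 reads) and 2.42, 2.52 and 2.39 FPKM in HepG2 NC. The ranges of the 2 lines were apart for each of these 3 genes.

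Effectors and guardians also differed between the lines, and MCL1 was the highest member per length in each. MCL1 averaged 83.7 ± 2.18 FPKM in HCT116 NC and 120 ± 5.51 FPKM in HepG2 NC (log2 change -0.52). BCL2L1 averaged 36.1 ± 2.08 FPKM in HCT116 NC and 64.9 ± 5.45 FPKM in HepG2 NC (-0.83). BAX averaged 28.5 ± 1.57 FPKM in HCT116 NC and 61.4 ± 1.33 FPKM in HepG2 NC (-1.09). All 3 were lower in HCT116 with no overlap between libraries. BBC3 (log2 change -0.50) and BCL2L11 (-0.24) were also lower in HCT116, while BAK1 did not differ by the test (12.8 ± 1.12 FPKM in HCT116 NC and 11.6 ± 0.185 FPKM in HepG2 NC, adjusted p = 0.055). In all, 8 of the 9 members tested across lines were called, 2 higher and 6 lower in HCT116, beside 85.6% of all genes tested. Genes in this comparison had to pass the filter in either line. BMF passed only in HepG2, the line where it was high, so its call is no independent support for the difference. With values scaled to equal totals the split was 3 higher and 5 lower, the median of all genes between the lines moved by 0.23, and BCL2L11 was no longer called (-0.06, adjusted p = 0.324).

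**Figure D1:**
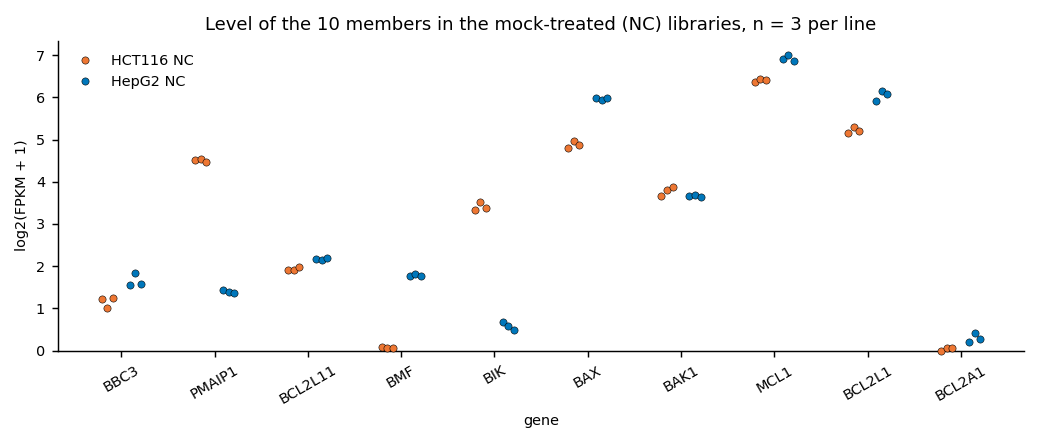
Level of each member in the mock-treated libraries as log2(FPKM + 1) (vertical axis) by gene (horizontal axis), HCT116 in orange left of HepG2 in blue, 1 point per library (n = 3 per line). PMAIP1 and BIK sit far higher in HCT116 and BMF far higher in HepG2, while BAK1 is close in both.

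BBC3, on chromosome 19 (GRCh38.p14, chr19:47220824-47232860, Entrez 27113), encodes PUMA, which binds every guardian. It had the largest log2 change among the members tested with TNF-α in HCT116. Its promoter stretch is shown because BBC3 changed after both TNF-α and Torin1. It is minus-strand sequence at chr19:47232618-47232917, 250 bases before to 50 after the RefSeq start, with the match to the AP-1 motif TGANTCA in capitals.
BBC3 promoter: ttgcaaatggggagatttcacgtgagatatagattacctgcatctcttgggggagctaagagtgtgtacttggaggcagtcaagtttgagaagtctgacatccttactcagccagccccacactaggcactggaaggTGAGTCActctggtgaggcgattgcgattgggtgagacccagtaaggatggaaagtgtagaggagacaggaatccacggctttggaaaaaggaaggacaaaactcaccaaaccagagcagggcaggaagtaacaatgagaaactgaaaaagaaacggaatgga
The match is read on both strands, as the motif is palindromic, and its first base is at -113 from the start.

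In HCT116, BBC3 stood at 4.17, 5.30 and 4.64 FPKM after 6 h of TNF-α, at 9.02, 10.5 and 10.7 FPKM after 3 h, and at 1.32, 1.00 and 1.36 FPKM in NC. Every TNF-α library lay above every NC library, and the 3 h libraries above the 6 h ones. The rise was 3.83-fold at 6 h (log2 change 1.35 ± 0.092, adjusted p = 1.55e-10) and 8.18-fold at 3 h (2.31 ± 0.092, adjusted p = 1.33e-14). Torin1 gave 2.83, 2.59 and 3.48 FPKM at 6 h and 2.88, 2.90 and 2.94 FPKM at 3 h, again all above NC. Those were rises of 2.41-fold (0.83 ± 0.092, adjusted p = 1.27e-07) and 2.36-fold (0.81 ± 0.092, adjusted p = 1.88e-07). IL-6 and IL-10 libraries ran from 0.907 to 1.33 FPKM and overlapped NC, with log2 changes between -0.06 and -0.01, none called. The order of levels was TNF-α 3 h, TNF-α 6 h, then the 2 Torin1 groups, which overlapped each other, then NC with the 4 IL-6 and IL-10 groups, which all overlapped their neighbours.

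HepG2 showed a flatter BBC3 response that was present at 3 h for every treatment. It stood at 2.62, 2.56 and 2.53 FPKM after 6 h of TNF-α, at 3.80, 4.26 and 3.96 FPKM after 3 h, and at 1.95, 2.55 and 1.98 FPKM in NC. The 3 h libraries were apart from NC and 1.86-fold higher (log2 change 0.67 ± 0.087, adjusted p = 3.95e-06). At 6 h the difference was 0.18 (adjusted p = 0.127), and 0.27 without NC replicate 2 (adjusted p = 0.0363). After Torin1 it stood at 2.39, 1.65 and 2.12 FPKM at 6 h, overlapping NC (-0.05, 95% interval -0.23 to 0.13), and at 3.68, 4.32 and 4.43 FPKM at 3 h, all above NC (0.71 ± 0.087, adjusted p = 1.02e-06). IL-6 raised it at 3 h (3.51, 3.35 and 3.39 FPKM, 0.49 ± 0.087, adjusted p = 0.000175). The 3 h IL-10 libraries (2.94, 3.05 and 2.56 FPKM) gave 0.29 (adjusted p = 0.0242), which was lost without IL-10 3 h replicate 1 or 2 (adjusted p = 0.0669 and 0.103) and without NC replicate 1 or 3 (0.11 and 0.0976).

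Against IL-10 of the same hour, BBC3 was higher after TNF-α in both lines, with log2 changes of 1.41 at 6 h and 2.37 at 3 h in HCT116 and of 0.36 and 0.38 in HepG2. In HepG2 the 6 h difference from NC was not called. IL-10 6 h had the lowest BBC3 mean of that line (1.78 FPKM, against 2.16 FPKM in NC). Torin1 against IL-10 gave 0.89 at 6 h and 0.87 at 3 h in HCT116, and in HepG2 only the 3 h value was called (0.42 ± 0.087, adjusted p = 0.000508, against 0.13 at 6 h, adjusted p = 0.202). The TNF-α response was larger in HCT116 than in HepG2 by 1.17 ± 0.13 at 6 h (adjusted p = 3.49e-09) and by 1.64 ± 0.13 at 3 h (adjusted p = 4.04e-13). The Torin1 response differed between the lines at 6 h (0.88 ± 0.13, adjusted p = 4.98e-07) and not by the test at 3 h (0.11, 95% interval -0.15 to 0.37).

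BMF (chr15:40087890-40108879, Entrez 90427) encodes a BH3-only protein known for its link to the cytoskeleton and to growth-factor loss. It was the member most raised by Torin1. Its promoter is shown for that reason, as minus-strand sequence at chr15:40108830-40109129 over the same window, with the match to the NF-kB consensus, read on the minus strand of this sequence and with its first base at -20 from the start, in capitals. A second BMF start in the table had no match to any of the 5 motifs searched.
BMF promoter: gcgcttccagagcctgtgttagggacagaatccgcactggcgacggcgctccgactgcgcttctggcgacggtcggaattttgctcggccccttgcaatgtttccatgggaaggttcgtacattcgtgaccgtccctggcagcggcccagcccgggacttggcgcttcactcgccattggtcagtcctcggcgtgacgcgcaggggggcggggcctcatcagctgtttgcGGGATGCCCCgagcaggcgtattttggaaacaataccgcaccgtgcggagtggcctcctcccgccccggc

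In HepG2, BMF stood at 9.51, 11.6 and 10.3 FPKM after 6 h of Torin1, at 5.15, 4.91 and 5.45 FPKM after 3 h, and at 2.42, 2.52 and 2.39 FPKM in NC. The 3 groups did not overlap, and the 6 h libraries were the highest of the line. The rise was 4.28-fold at 6 h (log2 change 1.73 ± 0.072, adjusted p = 2.66e-14) and 2.11-fold at 3 h (0.84 ± 0.072, adjusted p = 5.6e-09). Against IL-10 of the same hour it was 1.68 at 6 h and 1.16 at 3 h, and 6 h exceeded 3 h by 0.89 (adjusted p = 5.94e-09). In contrast to Torin1, IL-10 3 h (1.83, 1.73 and 1.73 FPKM, -0.32 ± 0.072, adjusted p = 0.00362) and TNF-α 3 h (2.11, 1.69 and 1.54 FPKM, -0.32 ± 0.072, adjusted p = 0.00192) lay below NC. IL-6 gave 3.59, 3.75 and 3.34 FPKM at 6 h, all above NC (0.40 ± 0.072, adjusted p = 0.000369).

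The same order was seen in HCT116 at levels under the limit for testing. BMF had 0.484, 0.426 and 0.571 FPKM after 6 h of Torin1 (125, 128 and 172 reads), 0.311, 0.166 and 0.176 FPKM after 3 h (82, 48 and 44 reads) and 0.0565, 0.0468 and 0.0375 FPKM in NC (14, 13 and 10 reads). All Torin1 libraries lay above all others of the line, which ran no higher than 0.106 FPKM. In the fit without a filter the log2 change was 0.51 at 6 h (adjusted p = 6.93e-10) and 0.22 at 3 h (adjusted p = 8.1e-05). The other 6 treated groups of HCT116 gave values between -0.02 and 0.06 there, none called.

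BCL2L11 (chr2:111120914-111168445, Entrez 10018) encodes BIM, a direct activator of BAX and BAK1 and a textbook FOXO target. Its promoter stretch, plus-strand sequence at chr2:111120664-111120963, holds the FOXO motif TGTTTAC on the opposite strand, read here as GTAAACA and printed in capitals, with its first base at -223 from the start.
BCL2L11 promoter: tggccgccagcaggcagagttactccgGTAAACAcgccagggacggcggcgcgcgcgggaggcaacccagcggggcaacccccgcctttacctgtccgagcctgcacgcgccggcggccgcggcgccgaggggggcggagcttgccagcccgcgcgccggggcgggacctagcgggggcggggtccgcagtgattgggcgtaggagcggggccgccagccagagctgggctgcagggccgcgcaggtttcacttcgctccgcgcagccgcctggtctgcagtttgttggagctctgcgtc
Of 35116 RefSeq promoter windows of this length (GRCh38.p14), 3.42% held the FOXO motif on either strand, 7.71% the AP-1 motif TGANTCA, 7.66% the STAT motif TTCNNNGAA, 5.91% the NF-kB consensus and 6.63% a p53 half-site. Windows were found for 8 members. BAK1 held a p53 half-site at -73 from its start and BCL2A1 a STAT match at -168, while PMAIP1, BAX and BCL2L1 held none of the 5 motifs in this window. A match describes the letters and is no evidence of binding.

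BCL2L11 rose after Torin1 in both lines and dipped at 3 h after several cytokines. In HCT116 it stood at 4.03, 4.22 and 3.81 FPKM after 6 h of Torin1, at 3.54, 3.96 and 3.70 FPKM after 3 h, and at 2.73, 2.73 and 2.94 FPKM in NC. All 6 Torin1 libraries lay above NC, and the 2 hours overlapped. The rises were 1.44-fold (log2 change 0.40 ± 0.048, adjusted p = 3.59e-07) and 1.33-fold (0.32 ± 0.048, adjusted p = 9.27e-06). In HepG2 it stood at 4.52, 4.88 and 4.83 FPKM after 6 h of Torin1, at 4.19, 4.22 and 4.10 FPKM after 3 h, and at 3.48, 3.46 and 3.56 FPKM in NC, with no overlap among the 3 groups. The rises there were 1.35-fold (0.35 ± 0.050, adjusted p = 3.32e-06) and 1.19-fold (0.20 ± 0.050, adjusted p = 0.00245). The Torin1 effects in the 2 lines differed by 0.05 at 6 h (95% interval -0.09 to 0.19) and by 0.12 at 3 h (-0.02 to 0.26), neither called.

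Cytokines moved BCL2L11 in both directions. After 3 h of IL-6 the level fell in HCT116 to 2.31, 2.31 and 2.23 FPKM (log2 change -0.21 ± 0.048, adjusted p = 0.00207) and in HepG2 to 2.75, 2.82 and 2.91 FPKM (-0.23 ± 0.050, adjusted p = 0.000968). IL-10 3 h gave -0.23 in HCT116 (adjusted p = 0.000668) and -0.21 in HepG2 (adjusted p = 0.00437). The TNF-α calls fell at different hours in the 2 lines. In HCT116, TNF-α 6 h raised it to 3.70, 3.78 and 3.60 FPKM, all above NC (0.30 ± 0.048, adjusted p = 3.38e-05), whereas in HepG2 TNF-α 3 h lowered it to 2.71, 2.49 and 2.64 FPKM, all below NC (-0.32 ± 0.050, adjusted p = 3.91e-05). At the other hours, HCT116 TNF-α 3 h (2.47 to 2.53 FPKM) also lay below NC, and was called only with equal totals. HepG2 TNF-α 6 h averaged 3.45 FPKM against 3.50 FPKM in NC and was not called. Against IL-10 of the same hour, TNF-α 6 h in HCT116 was called higher, and TNF-α 3 h in HepG2 was not called. The TNF-α 6 h effect was 0.32 ± 0.069 higher in HCT116 than in HepG2 (adjusted p = 0.000626).

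PMAIP1 (chr18:59899996-59904305, Entrez 5366) encodes NOXA, which binds MCL1 and BCL2A1. It rose early and fell back by 6 h. In HCT116 it stood at 22.9, 22.3 and 20.1 FPKM after 6 h of Torin1, at 47.4, 55.7 and 53 FPKM after 3 h, and at 22, 22.4 and 21 FPKM in NC. The 3 h libraries were the highest of the line, and the 6 h libraries overlapped NC. The 3 h rise was 2.39-fold (log2 change 1.22 ± 0.080, adjusted p = 7.13e-11), and the 6 h difference was -0.00 (95% interval -0.17 to 0.17). The cytokines also raised PMAIP1 at 3 h, to 33.4, 34.4 and 34.1 FPKM with IL-6 (0.62, adjusted p = 7.75e-06), 44.6, 36.0 and 35.8 FPKM with IL-10 (0.80, adjusted p = 1.94e-07) and 39.3, 43.8 and 42.5 FPKM with TNF-α (0.91, adjusted p = 8.72e-09). All of these lay above NC. At 6 h TNF-α was still higher, at 30.5, 29.2 and 30.9 FPKM (0.45, adjusted p = 0.000136). IL-10 6 h, at 30.6, 25.2 and 24.0 FPKM, gave 0.27 (adjusted p = 0.0217), which depended on its replicate 1 (0.17 without it, adjusted p = 0.169) and on NC replicate 3 (adjusted p = 0.0822 without it).

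With IL-10 of the same hour as the other side, the PMAIP1 rise in HCT116 was called only for Torin1 3 h (0.42 ± 0.080, adjusted p = 0.000245). Under other settings TNF-α 6 h was called with median-of-ratios factors, on recovered reads and without IL-10 6 h replicate 1. The TNF-α 3 h value was called without IL-10 3 h replicate 1. Torin1 6 h lay below IL-10 6 h there (-0.27, adjusted p = 0.00671, and -0.17 without IL-10 6 h replicate 1, adjusted p = 0.0707). All 4 treatments gave a lower level at 6 h than at 3 h in HCT116, from -0.46 for TNF-α to -1.22 for Torin1.

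In HepG2, PMAIP1 was low. As in HCT116 it was called higher after TNF-α at each hour and after IL-6 and IL-10 at 3 h, while Torin1 3 h did not raise it there. It stood at 2.97, 2.78 and 2.57 FPKM after 3 h of IL-6, at 2.76, 2.75 and 2.80 FPKM after 3 h of TNF-α, and at 1.70, 1.62 and 1.57 FPKM in NC. Both were 1.70-fold higher and apart from NC (log2 change 0.52 ± 0.060 each, adjusted p = 9.76e-07 for IL-6 and 9.2e-07 for TNF-α). Torin1 gave 1.22, 1.26 and 1.35 FPKM at 6 h, all below NC (-0.21 ± 0.060, adjusted p = 0.00547), and 1.39, 1.73 and 1.41 FPKM at 3 h, overlapping NC (-0.07, adjusted p = 0.35). IL-10 3 h (0.25, adjusted p = 0.00558) and TNF-α 6 h (0.26, adjusted p = 0.00257) also lay above NC, and so did IL-6 6 h (0.20, adjusted p = 0.0217, lost without IL-6 6 h replicate 2 at 0.125 and without NC replicate 2 or 3 at 0.0601 and 0.078). The Torin1 3 h effect was 1.29 ± 0.10 higher in HCT116 than in HepG2 (adjusted p = 3.01e-13). It kept between 1.24 and 1.37 over 19 alternatives and was called in all. HepG2 levels lie near the added 1 FPKM, and the TNF-α 3 h difference depended on the scale. It was 0.39 (adjusted p = 0.00346), but 0.21 with 0.1 FPKM added (adjusted p = 0.228) and 0.18 on recovered reads (adjusted p = 0.474). The IL-10 3 h difference was lost on recovered reads (adjusted p = 0.0535).

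BIK (chr22:43110750-43129712, Entrez 638), a BH3-only protein of the endoplasmic reticulum, was a TNF-α-responsive member in HCT116. It stood at 19.4, 18.0 and 19.5 FPKM after 6 h of TNF-α, at 18.4, 22 and 21 FPKM after 3 h, and at 9.03, 10.6 and 9.45 FPKM in NC. All 6 TNF-α libraries were the highest of the line and the 2 hours overlapped. The rise was 1.96-fold at 6 h (log2 change 0.90 ± 0.081, adjusted p = 1.62e-08) and 2.11-fold at 3 h (1.01 ± 0.081, adjusted p = 2.14e-09). Torin1 raised BIK to 14.8, 14.1 and 14.6 FPKM at 6 h (0.54 ± 0.081, adjusted p = 8.45e-06) and 13.4, 14.2 and 11.5 FPKM at 3 h (0.39 ± 0.081, adjusted p = 0.000382), all above NC. IL-6 3 h and IL-10 3 h gave 0.28 each. Both calls were lost without NC replicate 1 (adjusted p = 0.0642 for IL-6 and 0.0539 for IL-10) and without replicate 1 of the treated group (0.0653 and 0.0607). Against IL-10 of the same hour TNF-α kept 0.72 at 6 h and 0.73 at 3 h, and Torin1 0.36 at 6 h, with 0.11 at 3 h not called.

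HepG2 held between 8 and 61 reads of BIK per library. Its tests for TNF-α 3 h and Torin1 3 h rest on the values that let it pass the filter. In the fit without the filter, TNF-α 3 h against NC gave a log2 change of 0.45 (adjusted p = 0.00553) and Torin1 3 h 0.32 (adjusted p = 0.0381). TNF-α gave 0.832, 0.941 and 0.960 FPKM at 6 h and 0.957, 1.06 and 1.12 FPKM at 3 h, against 0.590, 0.50 and 0.404 FPKM in NC, with no overlap. Ratios of means were 1.83 at 6 h (log2 change 0.35, adjusted p = 0.0138, and 0.0636 without NC replicate 3) and 2.10 at 3 h (0.45, adjusted p = 0.00194). As ratios these are close to those of HCT116, although the log2 changes on the FPKM + 1 scale differed between the lines by 0.55 at each hour (adjusted p = 0.0023 at 6 h and 0.00149 at 3 h). On recovered reads, which need no added 1 FPKM, the differences were 0.04 and -0.04 (adjusted p = 0.957 and 0.945), so the direction of the 3 h difference turned. Torin1 6 h (0.32, adjusted p = 0.0114) and 3 h (0.32, adjusted p = 0.0149) were lost without NC replicate 3 (adjusted p = 0.0523 and 0.0654), and the 3 h call also without Torin1 3 h replicate 2 or 3 (0.0964 and 0.0689). IL-6 6 h, at 0.164, 0.314 and 0.184 FPKM, lay below NC (-0.30, adjusted p = 0.0492). That call was lost without any 1 NC library (adjusted p from 0.0542 to 0.17) and without IL-6 6 h replicate 1 or 3 (0.146 and 0.13).

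**Figure D2:**
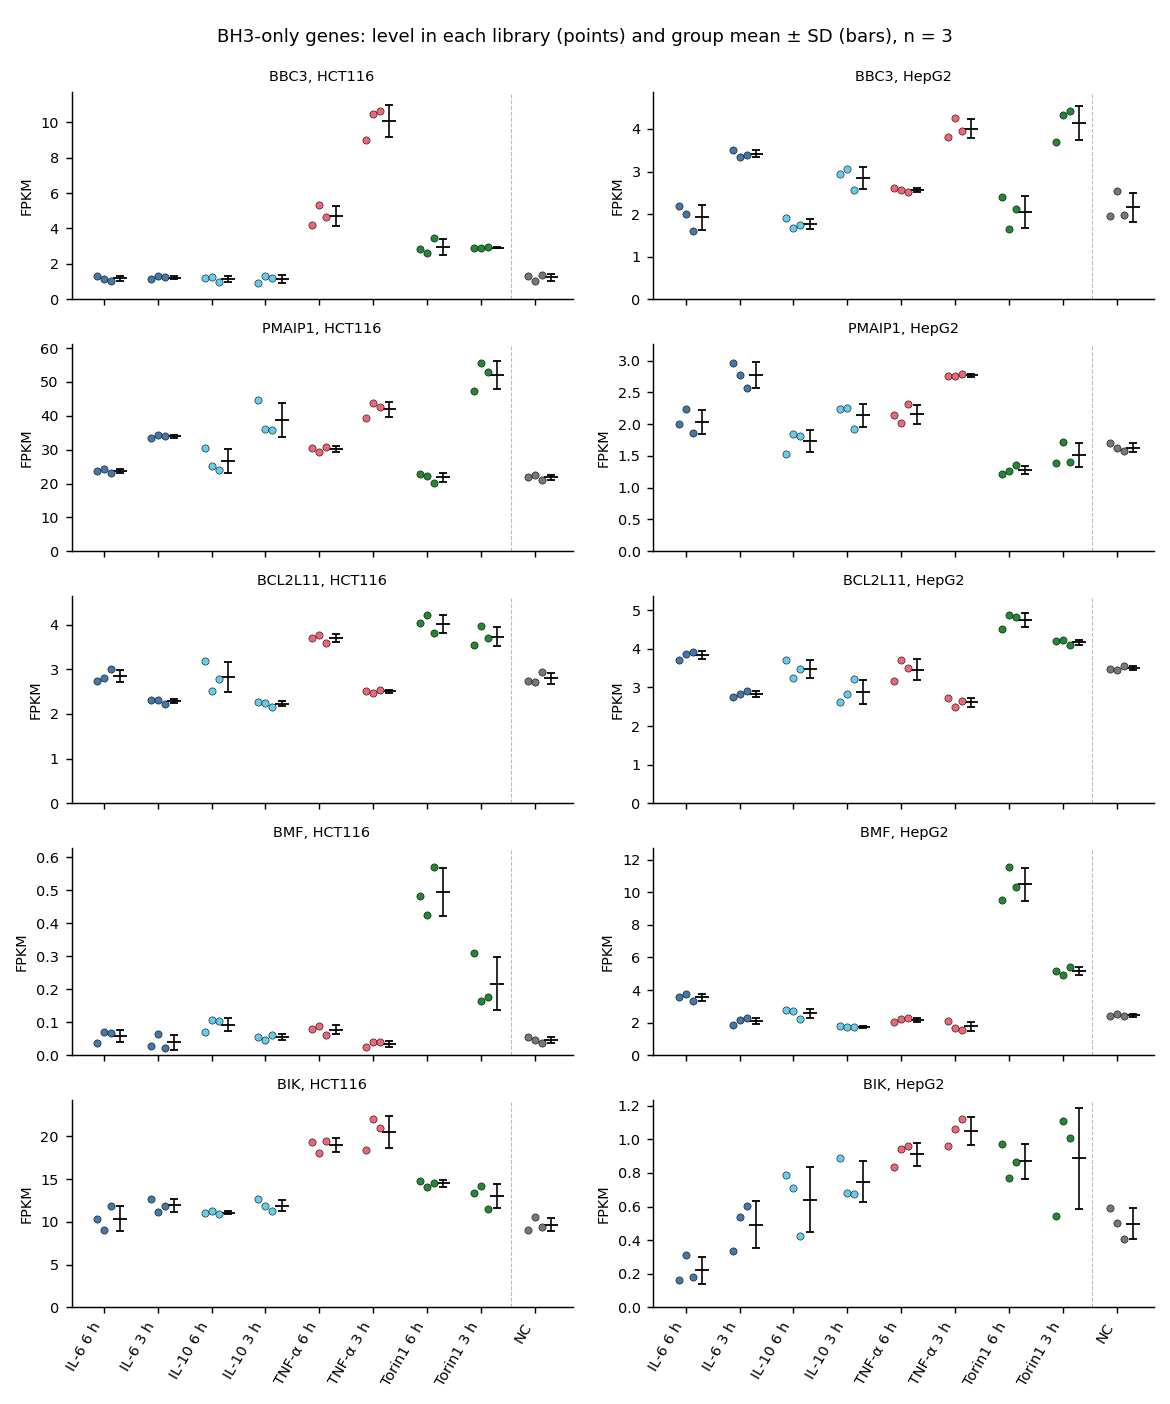
FPKM (vertical axis, linear, from 0) of the 5 BH3-only genes by group (horizontal axis), HCT116 left and HepG2 right, with 1 point per library and the group mean ± SD beside it (n = 3). BBC3 and BIK peak with TNF-α in HCT116, BMF with Torin1 6 h in both lines at very different levels, and PMAIP1 at 3 h.

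Of the effectors, BAX (chr19:48954875-48961798, Entrez 581) ran from 26.2 to 31.8 FPKM over all 27 HCT116 libraries. Its log2 changes against NC in that line ran from -0.07 to 0.10, and 0 were called by limma, 0 by voom on recovered reads and 0 at an unadjusted p under 0.05. Under other settings TNF-α 3 h was called without NC replicate 2 (0.14, adjusted p = 0.0444) and Torin1 6 h with equal totals (-0.15, adjusted p = 0.0224). In HepG2 it stood at 43.7, 42.2 and 42.7 FPKM after 6 h of Torin1 and at 61.8, 60.0 and 62.5 FPKM in NC. The Torin1 6 h libraries were the lowest of the line and apart from every other group, a ratio of 0.697 (log2 change -0.51 ± 0.050, adjusted p = 1.72e-08). After 3 h of Torin1 the difference was -0.08 (adjusted p = 0.179). The Torin1 6 h effect was 0.44 ± 0.071 higher in HCT116 than in HepG2 (adjusted p = 2.91e-06), where BAX fell. IL-10 3 h in HepG2 gave 0.15 (adjusted p = 0.0428), which was lost without any 1 NC library (adjusted p from 0.067 to 0.141) and without IL-10 3 h replicate 2 or 3 (0.151 and 0.0896).

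BAK1 (chr6:33572552-33580276, Entrez 578) fell after Torin1 in HCT116 and rose after IL-6 in HepG2. In HCT116 it stood at 9.50, 9.35 and 9.60 FPKM after 6 h of Torin1, at 8.93, 9.02 and 8.96 FPKM after 3 h, and at 11.6, 13.1 and 13.8 FPKM in NC. All Torin1 libraries lay below all other libraries of the line. The log2 changes were -0.39 ± 0.059 at 6 h (adjusted p = 8e-06) and -0.47 ± 0.059 at 3 h (adjusted p = 9.54e-07). In HepG2, Torin1 3 h gave -0.24 (9.79, 10.4 and 9.07 FPKM, adjusted p = 0.00304) and 6 h -0.12 (adjusted p = 0.0957, not called). IL-6 raised HepG2 BAK1 to 14.8, 16.1 and 15.4 FPKM at 6 h and 18.4, 16.1 and 13.9 FPKM at 3 h, against 11.6, 11.8 and 11.5 FPKM in NC. These 6 libraries lay above all others of the line (0.38 ± 0.060, adjusted p = 9.24e-05 at 6 h, and 0.43 ± 0.060, adjusted p = 1e-05 at 3 h). No rise with IL-6 was seen in HCT116 (-0.06 and -0.02), and the line difference was -0.44 at 6 h (adjusted p = 0.00036) and -0.45 at 3 h (adjusted p = 0.000102). TNF-α 6 h in HCT116 gave 0.17 (adjusted p = 0.0339), which was 0.10 without NC replicate 1 (adjusted p = 0.225) and 0.09 without TNF-α 6 h replicate 3 (adjusted p = 0.245).

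MCL1 (chr1:150574558-150579610, Entrez 4170), the guardian with the fastest turnover, rose at 3 h with every treatment in both lines. The 3 h rise was larger in HepG2 with IL-6, TNF-α and Torin1 by the test of the line difference, and with IL-10 that difference was not called (-0.10, 95% interval -0.23 to 0.03, adjusted p = 0.251). In HepG2 it stood at 137, 141 and 134 FPKM after 6 h of IL-6, at 234, 223 and 213 FPKM after 3 h, and at 119, 126 and 115 FPKM in NC. The 3 h IL-6 libraries were the highest of the line. Their rise was 1.86-fold (log2 change 0.89 ± 0.050, adjusted p = 2.34e-11), while 6 h gave 0.19 (adjusted p = 0.00864, and 0.0521 without NC replicate 3). TNF-α gave 134, 127 and 142 FPKM at 6 h and 199, 192 and 192 FPKM at 3 h (0.69 ± 0.050, adjusted p = 7.34e-10), and Torin1 146, 157 and 151 FPKM at 6 h (0.33 ± 0.050, adjusted p = 9.03e-06) and 188, 187 and 176 FPKM at 3 h (0.61 ± 0.050, adjusted p = 2.81e-09). These all lay above NC, and of the 6 h groups Torin1 was the highest. TNF-α 6 h gave 0.16 (adjusted p = 0.0213), lost without NC replicate 1 or 3 (0.0619 and 0.101) or TNF-α 6 h replicate 1 or 3 (0.0505 and 0.12). IL-10 gave 97.5, 103 and 91.6 FPKM at 6 h, the lowest group of the line and below NC (-0.30 ± 0.050, adjusted p = 0.000943), and 167, 169 and 152 FPKM at 3 h (0.43 ± 0.050, adjusted p = 3.51e-06).

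Order was sharp for MCL1 in HepG2. IL-6 3 h, TNF-α 3 h, Torin1 3 h and IL-10 3 h followed each other without overlap, IL-10 3 h overlapped Torin1 6 h, IL-6 6 h overlapped TNF-α 6 h, and NC and then IL-10 6 h lay apart at the low end. With IL-10 of the same hour as the comparison, MCL1 was higher in all 6 HepG2 groups, from 0.18 (Torin1 3 h, adjusted p = 0.00605, and 0.0523 without IL-10 3 h replicate 3) to 0.63 (Torin1 6 h, adjusted p = 6.82e-10). Every treatment gave a lower level at 6 h than at 3 h in HepG2, by log2 changes from -0.28 for Torin1 to -0.73 for IL-10.

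The HCT116 range of MCL1 was narrower. It stood at 72.1, 69.2 and 66.4 FPKM after 6 h of Torin1, at 91.3, 98.4 and 97.5 FPKM after 3 h, and at 81.6, 85.9 and 83.6 FPKM in NC. Torin1 thus lay above NC at 3 h (0.19 ± 0.038, adjusted p = 0.000248) and below it at 6 h (-0.27 ± 0.038, adjusted p = 3.77e-06), with no overlap in either case. The 3 cytokines at 3 h ran from 103 to 111 FPKM, with log2 changes of 0.33 to 0.35. At 6 h TNF-α gave 0.25 (adjusted p = 2.48e-05). IL-6 6 h gave 0.15 (adjusted p = 0.013), which was lost without NC replicate 1 (0.0559) and with equal totals (0.271). IL-10 6 h gave 0.12 (adjusted p = 0.0313). That call was lost without IL-10 6 h replicate 1 or 2 (0.158 and 0.0691) or NC replicate 1 or 3 (0.115 and 0.0774). No filter, equal totals, only the groups compared and voom on recovered reads lost it as well, 8 of 13 alternatives in all. Torin1 6 h split the lines, with an effect 0.60 ± 0.064 lower in HCT116 than in HepG2 (-0.60, adjusted p = 5.06e-10).

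BCL2L1 (chr20:31664452-31723963, Entrez 598), which encodes BCL-XL, lay on opposite sides of NC in the 2 lines after 3 h of cytokine. An antisense gene, BCL2L1-AS1, has its own row and whether counting used strand is nowhere stated, so reads of the 2 cannot be told apart with certainty. In HCT116 the 3 h libraries of IL-6 (29.8, 29.5 and 32.0 FPKM), IL-10 (30.5, 30.3 and 30.5 FPKM) and TNF-α (30.1, 30.4 and 31.9 FPKM) lay below NC (34.4, 38.4 and 35.5 FPKM). The groups did not overlap with NC, and the log2 changes were -0.24, -0.24 and -0.22 (adjusted p = 0.00192, 0.00146 and 0.00226). In HepG2 the same treatments gave 73.4, 81.5 and 72.8 FPKM, 73.8, 78.5 and 76.1 FPKM, and 75.7, 79.2 and 80.8 FPKM, all above NC (59.0, 69.7 and 66.1 FPKM), with log2 changes of 0.22, 0.23 and 0.27 (adjusted p = 0.00189, 0.00318 and 0.000275). The line differences were -0.46, -0.47 and -0.49, with adjusted p from 2.31e-06 to 1.58e-05. Against IL-10 of the same hour, 0 of 6 comparisons were called in HCT116. In HepG2, IL-6 3 h and TNF-α 3 h were not called against IL-10 3 h. There 2 of 6 were called, both higher, at 6 h for TNF-α (lost under 5 of 13 alternatives) and Torin1. As NC carried no time, these 3 h shifts cannot be told apart from time in culture.

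Torin1 raised BCL2L1 in HepG2 at 6 h, to 75.4, 79.6 and 76.9 FPKM (0.25 ± 0.051, adjusted p = 0.000236), and IL-10 6 h stood at 60.3, 56.9 and 54 FPKM (-0.18, adjusted p = 0.0244). The IL-10 call was lost without IL-10 6 h replicate 2 or 3 (adjusted p = 0.0628 and 0.127) and without NC replicate 2 or 3 (0.163 and 0.0784). In HCT116 Torin1 3 h gave -0.15 (adjusted p = 0.0255), lost without NC replicate 2 (0.148) or Torin1 3 h replicate 1 or 3 (0.139 and 0.0505).

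BCL2A1 (chr15:79960892-79971196, Entrez 597), the guardian known as an NF-kB target, was near 0 outside the TNF-α groups. In HCT116 it had 1.21, 0.708 and 1.61 FPKM after 6 h of TNF-α (46, 26 and 69 reads), 0.209, 0.365 and 0.290 FPKM after 3 h (10, 16 and 12 reads), and 0, 0.0480 and 0.0499 FPKM in NC (0, 2 and 2 reads). All 6 TNF-α libraries lay above every other library of the line, 13 of which were listed at 0. In HepG2 it had 0.839, 1.43 and 0.790 FPKM after 6 h of TNF-α (39, 56 and 34 reads), 0.823, 0.527 and 1.04 FPKM after 3 h (34, 24 and 50 reads), and 0.153, 0.331 and 0.217 FPKM in NC (8, 14 and 16 reads). Here too the TNF-α libraries lay above all others. Without the filter limma gave log2 changes of 1.06 at 6 h (adjusted p = 3.69e-08) and 0.32 at 3 h (adjusted p = 0.0197) in HCT116, and of 0.70 (adjusted p = 0.000198) and 0.54 (adjusted p = 0.00216) in HepG2. No ratio is given for HCT116, where NC held at most 2 reads per library.

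**Figure D3:**
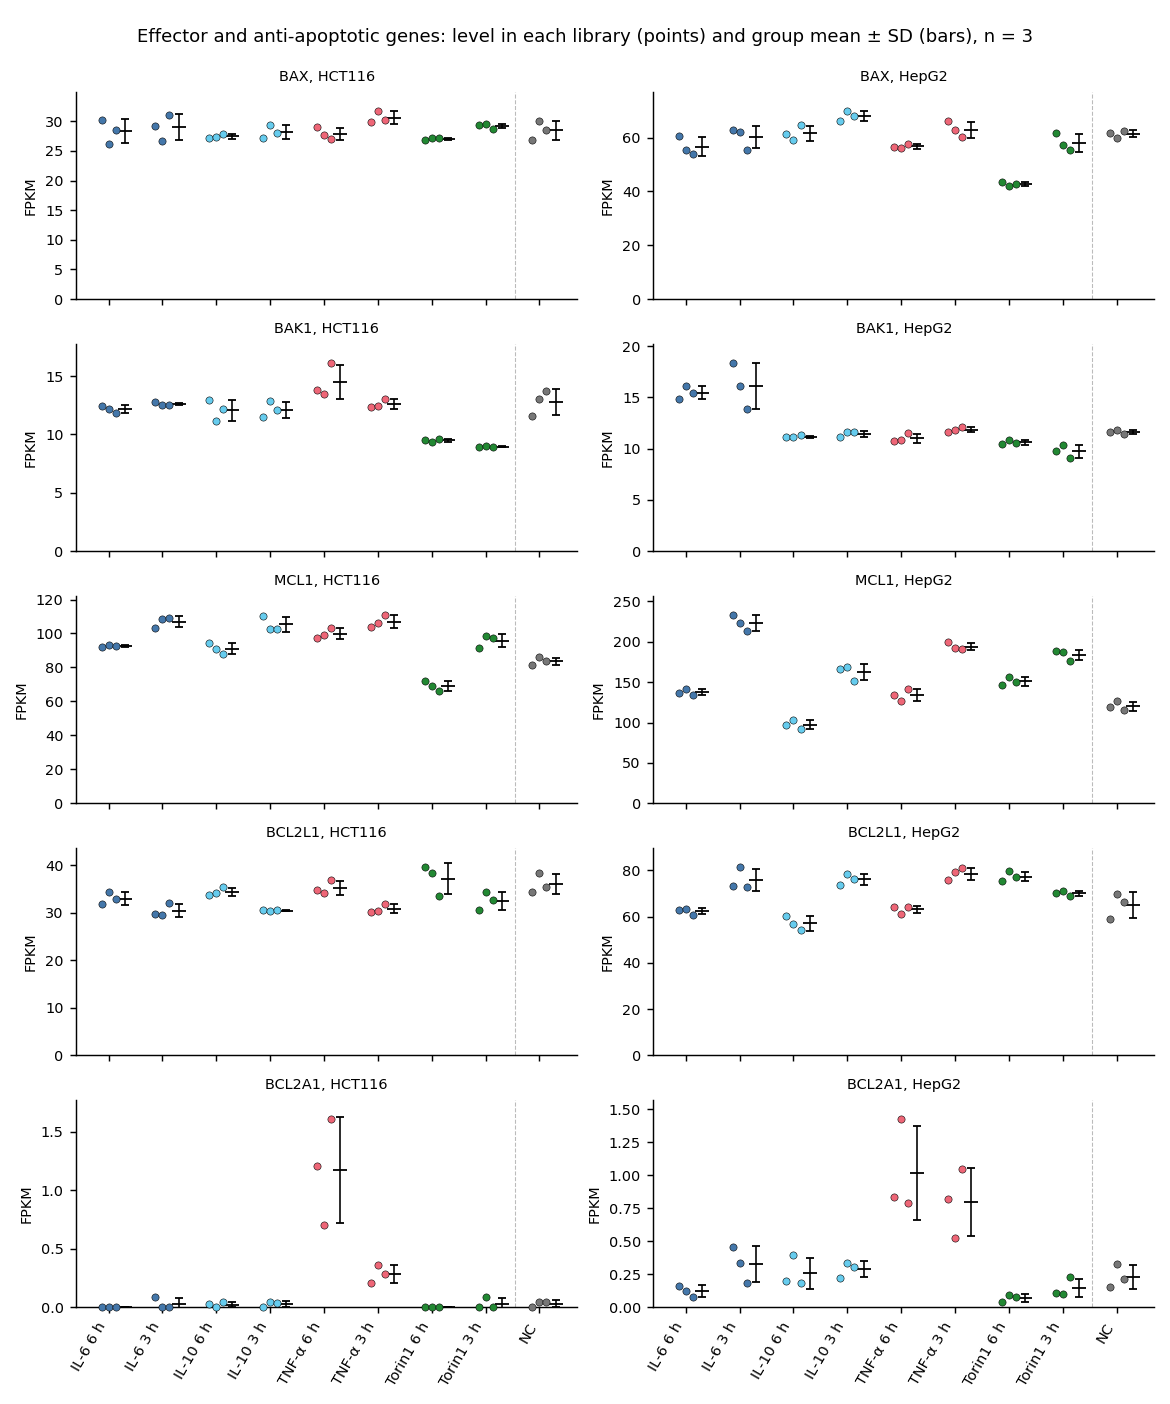
FPKM (vertical axis, linear, from 0) of the 2 effectors and 3 guardians by group (horizontal axis), HCT116 left and HepG2 right, with 1 point per library and the group mean ± SD beside it (n = 3). BAX is lowest with Torin1 6 h in HepG2, MCL1 in HepG2 is highest in the 3 h groups, and BCL2A1 stands out only with TNF-α.

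Counted over the family, each treated group was read against the share of all tested genes called in the same comparison. HCT116 cells given TNF-α for 6 h had 6 of 8 tested members called against NC, all higher, beside 33.9% of all genes. At 3 h the count was 5, of which 4 were higher, beside 41.6%. Torin1 6 h called 5 members, 3 of them higher, beside 57.2% of genes. Torin1 3 h called 7, of which 5 were higher, beside 53.7%. For IL-6 the count was 1 at 6 h, MCL1, beside 16.6%. IL-6 3 h called 5, of which 3 were higher, beside 31.6%. IL-10 6 h called 2, both higher, beside 20.5%. IL-10 3 h called 5, of which 3 were higher, beside 38.8%. Several of these shares are near the background, and with 8 genes each none is read as particular to the family. Over the 8 groups 27 calls were higher and 9 lower, and 23 were higher and 13 lower with values scaled to equal totals, a scaling that moved the median of all genes by up to -0.12 (TNF-α 3 h).

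HepG2 gave 9 tested members, with BIK tested only through libraries of TNF-α 3 h and Torin1 3 h. The counts of these groups include BIK, and so do those of TNF-α 6 h, Torin1 6 h and IL-6 6 h. Its IL-6 6 h call was lost under 9 of 13 alternatives. As in HCT116, none of the shares is read as particular to the family. TNF-α 6 h called 3 against NC, all higher, beside 28.7% of all genes. TNF-α 3 h called 7, of which 5 were higher, beside 29.7%. Torin1 6 h also called 7, with 5 higher, beside 59.9%. Torin1 3 h called 6, of which 5 were higher, beside 45.5%. In the IL-6 groups 5 members were called at 6 h, of which 4 were higher, beside 19.4%. At 3 h IL-6 called 6, of which 5 were higher, beside 33.9%. IL-10 6 h called 2, both lower, beside 11.7%, namely MCL1 and BCL2L1. IL-10 3 h called 7, of which 5 were higher, beside 19.1%. The median log2 change of the tested members ran from -0.02 (TNF-α 6 h) to 0.27 (TNF-α 3 h) over the 8 HepG2 groups, where the median over all tested genes ran from -0.04 to -0.01. In HCT116 it ran from -0.04 (IL-10 3 h) to 0.28 (TNF-α 6 h), beside medians of all genes from -0.02 to 0.01.

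**Figure D4:**
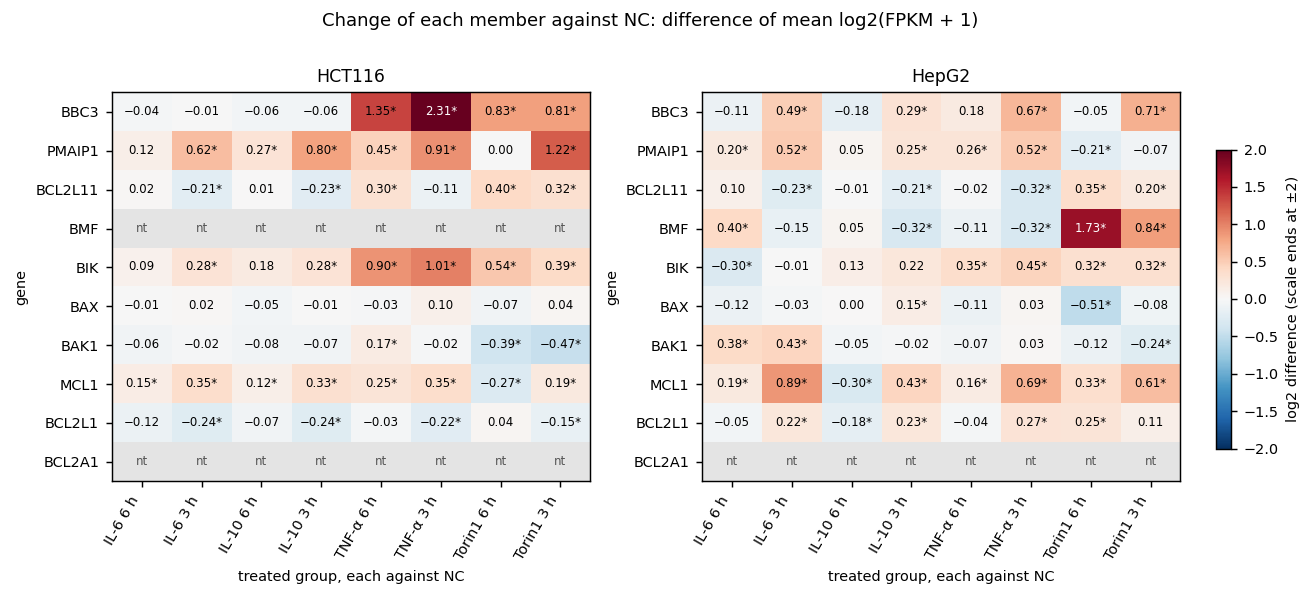
Difference of mean log2(FPKM + 1) from NC for each member (rows) in each treated group (columns), HCT116 left and HepG2 right, with red for higher and blue for lower, * for adjusted p under 0.05 and nt for not tested. The darkest cells are BBC3 with TNF-α in HCT116 (1.35 at 6 h and 2.31 at 3 h), BMF with Torin1 6 h in HepG2 (1.73) and PMAIP1 with Torin1 3 h in HCT116 (1.22).

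Set against IL-10 of the same hour, IL-6 called none of the 8 members in HCT116 at 6 h, beside 0.114% of genes, and none at 3 h, beside 0.237%. At an unadjusted p under 0.05 there were 0 at 6 h and 1 at 3 h (PMAIP1, log2 change -0.18), and voom on recovered reads called 0 at each hour. TNF-α 6 h called 5 in that line, beside 42.3%. TNF-α 3 h called 2, BBC3 and BIK, beside 36.5%. Torin1 called 6 at 6 h, beside 57.3%. At 3 h Torin1 called 5, beside 44.3%. In HepG2, IL-6 against IL-10 called 4 of 9 members at 6 h, beside 23.6% of genes. At 3 h it was again 4, beside 22.8%. TNF-α in HepG2 called 4 at 6 h, beside 34.8%. At 3 h TNF-α called 3, beside 16.1%. Torin1 in HepG2 called 6 at 6 h, beside 59.0%. At 3 h Torin1 called 7, beside 45.5%. The calls against NC and those against IL-10 share the treated libraries and were not counted together.

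Between the hours, PMAIP1 and MCL1 were lower at 6 h than at 3 h in all 4 HCT116 treatments, and MCL1 and BBC3 in all 4 HepG2 treatments, while BMF and BCL2L11 were higher at 6 h in all 4 HepG2 treatments. With IL-6 in HCT116, 3 of 8 members differed, beside 18.4% of genes. With IL-10 it was 4, beside 20.0%. TNF-α in HCT116 gave 7, beside 37.3%. Torin1 in HCT116 gave 3, beside 30.4%. Under IL-6 in HepG2 7 of 9 differed, beside 23.5%. Under IL-10 in that line it was 6, beside 16.0%. TNF-α in HepG2 gave 7, beside 25.4%. Torin1 in HepG2 gave 6, beside 36.4%. The shares of members lay above the background in each of these comparisons, by the least for Torin1 in HCT116. With 8 or 9 genes each, chosen with earlier results known, none is read as particular to the family. The TNF-α count in HCT116 includes BAX and BAK1, lost under 8 and 5 of 13 alternatives. Of the calls that hold these statements up, MCL1 with TNF-α in HCT116 (-0.10, adjusted p = 0.0465) was lost without TNF-α 3 h replicate 2 or 3 (adjusted p = 0.0802 and 0.202) or TNF-α 6 h replicate 1 or 2 (0.162 and 0.107). It was also lost with no filter, median-of-ratios factors, equal totals, the replicate block and only the groups compared, 9 of 13 alternatives in all. BMF with TNF-α in HepG2 (0.20, adjusted p = 0.0439) was lost without TNF-α 3 h replicate 2 or 3 (0.139 and 0.195) or TNF-α 6 h replicate 2 or 3 (0.114 and 0.121). No filter and only the groups compared lost this call as well, 6 of 13 alternatives in all. BCL2L11 with Torin1 in HepG2 (0.15, adjusted p = 0.0203) was lost without Torin1 3 h replicate 3 (0.0614) or Torin1 6 h replicate 2 or 3 (0.0718 and 0.0672). With IL-10 in HepG2 the BCL2L11 call was lost with only the groups compared (0.123).

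The effects of treatment, each against NC, were then compared between the lines for the 8 members tested in both. BIK was among them only through HepG2 libraries of TNF-α 3 h and Torin1 3 h. TNF-α 6 h effects differed for 3 members, BBC3, BCL2L11 and BIK, beside 16.8% of genes. At 3 h TNF-α differed for 6, beside 22.9%. Torin1 6 h differed for 5, beside 50.1%. Torin1 3 h differed for 4, beside 39.9%. IL-6 differed for 2 at 6 h, beside 15.8%. At 3 h IL-6 differed for 4, beside 33.3%. IL-10 differed for 1 at 6 h, MCL1, beside 16.8%. At 3 h IL-10 differed for 3, beside 24.4%. BIK was not called at either hour of TNF-α with 0.1 FPKM added, with equal totals or on recovered reads, and PMAIP1 was lost at 3 h of TNF-α under the same 3 settings. BBC3 and BCL2L11 at 6 h, and BBC3, MCL1 and BCL2L1 at 3 h, were called under all 19 alternatives. BIK with IL-6 6 h and BBC3 with IL-10 3 h were each lost under 11 of 19, and BCL2L11 with TNF-α 3 h under 7. Of these 28 differences 13 were higher in HCT116 and 15 lower. With values scaled to equal totals there were 22, of which 8 were higher and 14 lower. BBC3 and PMAIP1 lay on the higher side of HCT116 with TNF-α 3 h, and MCL1 and BCL2L1 on the lower side.

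**Figure D5:**
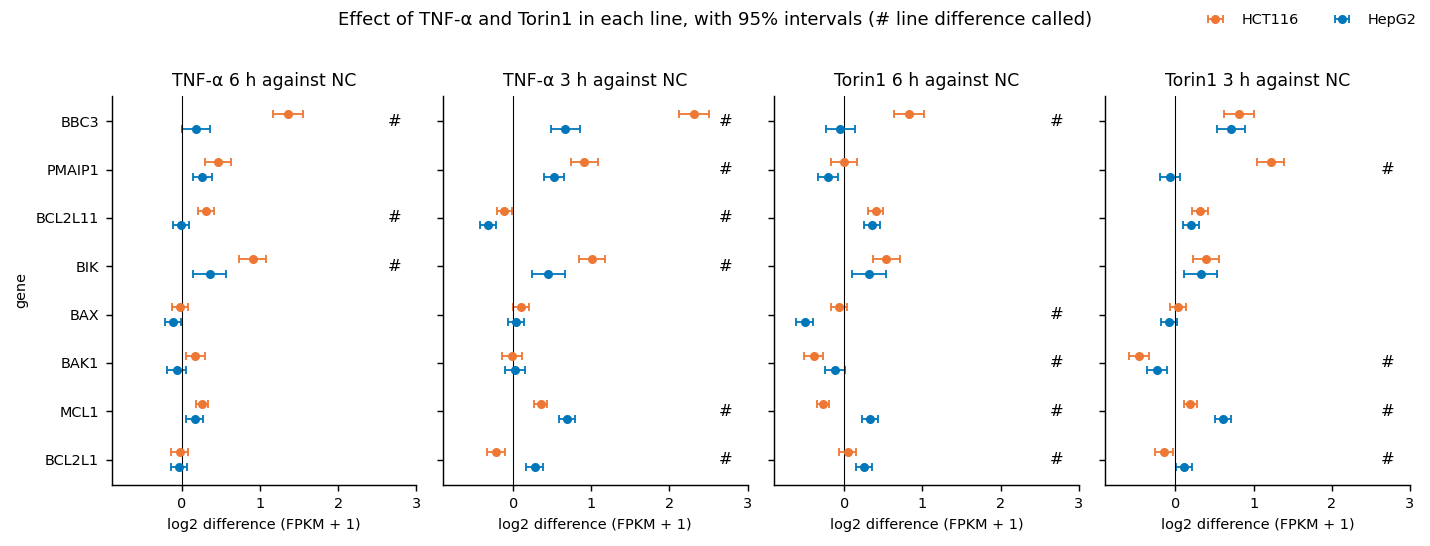
Log2 change against NC (horizontal axis, points with 95% intervals) of the 8 members tested in both lines (vertical axis), HCT116 in orange above HepG2 in blue, for TNF-α and Torin1 at 6 h and 3 h, with # where the difference between the lines was called. BBC3 with TNF-α and PMAIP1 with Torin1 3 h are the widest separations.

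Other genes of the pathway were taken from lists and read in the same fits. Their counts stand beside the shares of all tested genes called in either direction, which for Torin1 were 57.2% at 6 h and 53.7% at 3 h in HCT116 and 59.9% and 45.5% in HepG2, and for TNF-α 33.9% and 41.6% in HCT116 and 28.7% and 29.7% in HepG2. Of 10 tested FOXO targets that are no members, all 10 rose in HCT116 after Torin1 at 6 h (median log2 change 0.98, median of all genes -0.02) and at 3 h (1.19), and in HepG2 11 of 12 rose at each hour (0.85 at 6 h and 0.81 at 3 h). CCNG2, a cyclin-like FOXO target, reached 7.78 ± 0.47 FPKM at 6 h and 11.3 ± 0.68 FPKM at 3 h in HCT116, against 0.787 ± 0.087 FPKM in NC (log2 change 2.30 and 2.78). IGFBP1, a liver insulin-repressed gene, reached 864 ± 34 FPKM at 6 h in HepG2, against 124 ± 5.8 FPKM in NC (2.79). KLHL24 rose as well (1.97 in HCT116 and 1.57 in HepG2 at 6 h).

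The 19 tested p53 targets other than BBC3 and PMAIP1 moved in both directions. After Torin1 in HCT116, 7 were higher and 8 lower at 6 h, beside 57.2% of all genes called, and 13 higher and 5 lower at 3 h, beside 53.7%. In HepG2, 2 were higher and 13 lower at 6 h and 4 higher and 11 lower at 3 h (medians -0.47 and -0.18). CDKN1A, the p21 cell-cycle inhibitor, fell after Torin1 6 h in both lines, to 13.4 ± 0.86 FPKM in HCT116 against 25.4 ± 0.62 FPKM in NC (-0.88), and to 10.2 ± 0.37 FPKM in HepG2 against 30.2 ± 1.2 FPKM in NC (-1.48). It rose after TNF-α 3 h in HCT116, to 82.3 ± 3.2 FPKM (1.66), where 10 of the 19 were higher and 1 lower. GDF15, a stress-induced cytokine, rose after Torin1 3 h in HCT116 (48.0 ± 6.3 FPKM, against 10.3 ± 0.45 FPKM in NC, 2.11), the group with the highest PMAIP1.

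On the death receptor side, TNF-α changed 7 of 9 tested genes in HCT116 at 6 h, all higher (median 0.33), beside 33.9% of all genes, and 8 at 3 h, of which 7 were higher (0.30), beside 41.6%. In HepG2, of 11 tested, 3 were higher and 2 lower at 6 h and 4 higher and 2 lower at 3 h. TNFRSF10B, a TRAIL receptor, reached 54.3 ± 2.5 FPKM at 6 h and 70.0 ± 0.80 FPKM at 3 h in HCT116, against 24.1 ± 0.85 FPKM in NC (1.14 and 1.5). BIRC3, which encodes cIAP2 and is induced by NF-kB, reached 58.6 ± 1.4 FPKM at 6 h and 86.4 ± 5.0 FPKM at 3 h in HCT116, against 0.435 ± 0.14 FPKM in NC (5.38 and 5.93). In HepG2 it reached 21.0 ± 2.0 FPKM and 21.3 ± 1.2 FPKM, against 1.82 ± 0.077 FPKM in NC (2.96 and 2.98). Of 5 tested inhibitors of apoptosis, TNF-α raised 3 at each hour in HCT116, and in HepG2 3 at 6 h and 2 at 3 h.

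Downstream of the mitochondria, 13 apoptosome and caspase genes were tested in each line. Torin1 6 h lowered 6 and raised 2 in HCT116 and lowered 8 and raised 1 in HepG2 (medians -0.06 and -0.21). With 57.2% and 59.9% of all genes called, 8 and 9 of 13 are near the background. CYCS, cytochrome c, fell after Torin1 6 h in HepG2 to 45.0 ± 2.8 FPKM, against 70.8 ± 2.6 FPKM in NC (-0.64).

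Of the remaining 13 BCL2 family genes, 8 were tested in each line. After Torin1 6 h 3 rose and 2 fell in HCT116, and 2 rose and 3 fell in HepG2, and 5 of 8 in each line is near the 57.2% and 59.9% of all genes called. BNIP3L, a mitophagy receptor related to the family, rose with Torin1 6 h to 20.5 ± 0.62 FPKM in HCT116 against 11.8 ± 0.44 FPKM in NC (0.75) and to 14.8 ± 0.10 FPKM in HepG2 against 10.3 ± 1.1 FPKM in NC (0.49). BAD, a BH3-only gene, fell in HepG2 (-0.44). TNF-α 3 h raised 6 of the 8 in HCT116 and lowered none, with BCL2L2 (BCL-W) at 10.8 ± 0.55 FPKM against 8.85 ± 0.41 FPKM in NC (0.26).

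Among factors that control members, TNF-α raised 10 and lowered 1 of 13 tested genes in HCT116 at each hour, and in HepG2 raised 7 at 6 h and 11 at 3 h and lowered none. Direct readouts of the cytokines also rose with TNF-α in HCT116, 6 of 7 tested at 6 h and 7 of 7 at 3 h, and in HepG2 4 of 8 rose and 2 fell at 6 h and 7 of 8 rose at 3 h. RELB, an NF-kB subunit, rose in HCT116 to 28.2 ± 0.92 FPKM at 6 h and 27.5 ± 1.9 FPKM at 3 h, against 2.52 ± 0.38 FPKM in NC. STAT3 rose after IL-6 in HepG2 to 54.5 ± 1.2 FPKM at 6 h and 58.6 ± 1.1 FPKM at 3 h, against 30.6 ± 0.59 FPKM in NC (0.81 and 0.92). SOCS3, the direct readout of STAT3 signalling, reached 8.61 ± 0.39 FPKM at 6 h of IL-6 in HepG2, against 0.0836 ± 0.036 FPKM in NC, and was 3.91 ± 0.18 FPKM in HCT116 at 6 h, against 2.98 ± 0.41 FPKM in NC (0.31). FOXO3 rose after Torin1 in HepG2 to 8.26 ± 0.19 FPKM at 6 h and 8.22 ± 0.31 FPKM at 3 h, against 3.85 ± 0.19 FPKM in NC (0.94 and 0.93). Of 7 tested genes of MCL1 protein turnover, Torin1 6 h raised 2 and lowered 1 in HCT116 and raised 3 and lowered 2 in HepG2. DUSP6, an ERK phosphatase, was among those raised, by 0.73 in HCT116 and by 1.30 in HepG2. The ATF4 and CHOP targets went down with Torin1 6 h, with 5 of 7 lower and 1 higher in HCT116 and 6 of 6 lower in HepG2, where DDIT4 fell to 4.50 ± 0.29 FPKM, against 41.7 ± 1.9 FPKM in NC.

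The genes whose 9 group means followed a member most closely, by Pearson's r within a line, were taken as a description with no test. BMF in HepG2 was followed by RAP1GAP2 (r = 0.988), TRAK1 (0.987) and PIK3C3 (0.976). BBC3 in HCT116 was followed by ANKRD33B (0.976). PMAIP1 was followed by KLF5 (0.970), AREG (0.961) and GADD45A (0.957) in HCT116 and by FOSL1 (0.980) in HepG2. BCL2L11 in HepG2 was nearest to ANKZF1 (0.978) and had TXNIP (0.972) among its 3. MCL1 in HepG2 was nearest to MAFK (0.958) and MAFF (0.953), and BAK1 in HepG2 to LOXL4 (0.963) and LRG1 (0.955). The 9 means come from the same 27 libraries and share NC. BAX and BCL2L1 in HCT116 and BCL2L1 in HepG2 spanned under 0.5 on the log2 scale and were not matched.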

How the data were processed

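The data are poly(A) RNA libraries (VAHTS Universal V8 kit, paired-end, MGISEQ-2000RS, per the labels' protocols). The authors deposited a single table of FPKM values for the 54 libraries. FastQC, HISAT2, StringTie, DESeq2 and GRCh38 are named in the submitters' processing notes, without versions, and the use of strand in counting is not stated. All 36451 genes above 0 gave whole reads within 0.01 read (100%) when FPKM was divided by the value of 1 read, and, judged from the deposited values alone, the library size they imply followed the median-of-ratios factor of the recovered reads (ratio of both 0.998 to 1.002). A gene above 0 in only 1 library meets this limit by construction, and genes in few libraries can meet it by chance. For such genes the share is no check of the recovery. The 48 columns of the authors' own comparisons were not used.

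Values were analysed as log2(FPKM + 1) with limma 3.58.1 in R 4.3.3 (trend, 1 mean per group, 1 fit per line, 1 fit of all 54 libraries for differences between lines), for genes that reached 1 FPKM in 3 or more libraries of a line (11395 in HCT116, 11280 in HepG2, 9683 in both, 12992 in either), with Benjamini-Hochberg adjustment. Recovered reads served for depth, read numbers and an alternative test (voom). Tables were handled with the R package data.table (1.17.8), Python 3.11.15 and pandas 2.3.3, and the test was checked on simulated data. Alternatives were 0.1 FPKM added, no filter, median-of-ratios factors, equal totals (TPM), only the groups compared, a replicate block and leaving out each library. Promoters came from RefSeq (GRCh38.p14), and motifs were searched on both strands. From each list the text names genes among the 2 called with the largest change per comparison with NC, and among the 3 most alike. Some genes that this rule names are not reported here. A few lists share genes (BIRC3, STAT3 and SESN2 stand in more than 1). The members and the lists were chosen with earlier results of these data known.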

Additional observations from a re-analysis of the deposited data

Results flagged for a closer look

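The members' responses differed between hours or between lines in 71 comparisons in which limma's test of the difference itself had a Benjamini-Hochberg adjusted p under 0.05. All are differences of mean log2(FPKM + 1), 6 h minus 3 h within a line or the treatment effect in HCT116 minus that in HepG2. Groups of 3 are too small for a test of single outlying libraries, and none was run.

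For BBC3, 6 h differed from 3 h by -0.96 with TNF-α in HCT116, and in HepG2 by -0.60 with IL-6, -0.47 with IL-10, -0.49 with TNF-α and -0.76 with Torin1. Its effects in HCT116 minus HepG2 were -0.50 for IL-6 3 h, -0.35 for IL-10 3 h, 1.17 for TNF-α 6 h, 1.64 for TNF-α 3 h and 0.88 for Torin1 6 h. The IL-10 3 h difference was lost under 11 of 19 alternatives.

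PMAIP1 gave 6 h minus 3 h values of -0.50 with IL-6, -0.53 with IL-10, -0.46 with TNF-α and -1.22 with Torin1 in HCT116, and of -0.32, -0.20 and -0.26 with IL-6, IL-10 and TNF-α in HepG2. The IL-10 value in HepG2 was lost under 6 of 13 alternatives. Between the lines it gave 0.55 for IL-10 3 h, 0.39 for TNF-α 3 h and 1.29 for Torin1 3 h. Of 19 alternatives, 3 lost the TNF-α 3 h difference and 1 the IL-10 3 h difference.

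BCL2L11 was higher at 6 h by 0.23, 0.24 and 0.42 with IL-6, IL-10 and TNF-α in HCT116, and by 0.34, 0.20, 0.30 and 0.15 with IL-6, IL-10, TNF-α and Torin1 in HepG2. Of 13 alternatives, 3 lost the Torin1 value in HepG2 and 1 the IL-10 value in each line. The TNF-α effect was larger in HCT116 by 0.32 at 6 h and 0.20 at 3 h (the latter lost under 7 of 19 alternatives). BMF in HepG2 was higher at 6 h by 0.56 with IL-6, 0.37 with IL-10, 0.20 with TNF-α (lost under 6 of 13 alternatives) and 0.89 with Torin1. BIK in HepG2 gave -0.29 between the hours of IL-6 (lost under 7 of 13 alternatives), and its effects in HCT116 minus HepG2 were 0.38 for IL-6 6 h, 0.55 for TNF-α 6 h and 0.55 for TNF-α 3 h. Of 19 alternatives, 11 lost the IL-6 6 h difference and 3 the TNF-α 6 h difference. The TNF-α 3 h difference was lost under 2 and reversed under 1. BIK passed the HepG2 filter only through libraries of TNF-α 3 h and Torin1 3 h.

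BAX differed between the hours by -0.13 with TNF-α in HCT116, and by -0.15 with TNF-α and -0.43 with Torin1 in HepG2, and its Torin1 6 h effect differed between the lines by 0.44. The TNF-α values of BAX were lost under 8 of 13 alternatives in HCT116 and 7 of 13 in HepG2. BAK1 differed between the hours of TNF-α in HCT116 by 0.18, and between the lines by -0.44 for IL-6 6 h, -0.45 for IL-6 3 h, -0.27 for Torin1 6 h and -0.23 for Torin1 3 h. Its TNF-α value was lost under 5 of 13 alternatives and its Torin1 3 h value under 5 of 19.

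MCL1 was lower at 6 h in each treatment, with differences of -0.20, -0.21, -0.10 and -0.46 with IL-6, IL-10, TNF-α and Torin1 in HCT116 and of -0.69, -0.73, -0.53 and -0.28 in HepG2. The MCL1 value for TNF-α in HCT116 was lost under 9 of 13 alternatives. Its line differences were -0.54 for IL-6 3 h, 0.42 for IL-10 6 h, -0.34 for TNF-α 3 h, -0.60 for Torin1 6 h and -0.42 for Torin1 3 h. BCL2L1 gave 0.17, 0.19 and 0.19 between the hours of IL-10, TNF-α and Torin1 in HCT116, and -0.28, -0.41, -0.31 and 0.14 with IL-6, IL-10, TNF-α and Torin1 in HepG2. Of 13 alternatives, 6 lost the BCL2L1 value for IL-10 in HCT116, 4 that for Torin1 there and 6 that for Torin1 in HepG2. Its effects differed between the lines by -0.46 for IL-6 3 h, -0.47 for IL-10 3 h, -0.49 for TNF-α 3 h, -0.21 for Torin1 6 h (lost under 4 of 19 alternatives) and -0.26 for Torin1 3 h.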

How the results depend on the processing

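Of 204 member values called, 152 were called under every alternative counted and 52 were lost under at least 1. Of 175 not called, 35 were called under at least 1. For these counts, libraries were left out only from the groups compared, not from other groups in the same fit. Leaving out 1 library at a time gave 31 to 36 calls against NC in HCT116 (36 with all libraries) and 33 (without NC replicate 3) to 44 in HepG2 (43). Against IL-10 the range was 17 to 19 in HCT116 (18) and 26 to 30 in HepG2 (28), between the hours 14 to 17 (17) and 22 to 29 (26), between the lines' effects 25 to 29 (28) and between the NC groups 8 to 9 (8). No alternative moved these counts by over 1.5 times. Only 1 value reversed, the TNF-α 3 h effect on BIK in HCT116 minus HepG2, which was -0.039 with voom on recovered reads, where no FPKM is added, and the cause was not tested. Same-numbered libraries did not deviate together (median correlation -0.001 in HCT116 and 0.013 in HepG2), so the numbers are not taken as pairs. With the replicate block there were 36 calls against NC in HCT116 and 42 in HepG2, 15 and 26 between the hours, and 28 between the lines' effects. Members under about 1 FPKM (BMF and BCL2A1 in HCT116, BIK and BCL2A1 in HepG2) rest on few reads, which limits the precision of their values.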
